A study of Mus musculus with 9 samples.

Results

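The proteasome genes were taken as the protein-coding genes whose symbol starts with Psma, Psmb, Psmc, Psmd, Psme, Psmf or Psmg and a number, with the rows of each gene identifier summed. There were 50 such genes of 25059 gene identifiers in the series, and the rule uses names, not measured values. They comprise 17 subunits of the 19S regulatory particle, 14 standard subunits of the 20S core, 3 immunosubunits, 2 tissue variants of core subunits, 5 activators, 1 inhibitor (Psmf1) and 7 assembly factors. The remaining gene, Psmc3ip, was taken in by its name, but it encodes a partner of meiotic recombinases and no proteasome subunit. Adrm1 and Sem1, also 19S subunits, have other symbols and were followed in a separate list.

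The 26S proteasome degrades proteins tagged with ubiquitin. Its 20S core is a barrel of alpha and beta rings with the proteolytic sites inside, and the 19S particle, which caps the barrel, binds ubiquitin, removes it and uses ATP to unfold the substrate and feed it into the barrel. After the luteinizing hormone surge, granulosa cells leave the cell cycle, secrete the matrix and signals of ovulation and turn into luteal cells. Ubiquitin-dependent degradation is a general route by which regulatory proteins are removed when cells change state.

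RNA was sequenced from ovarian granulosa cells (the somatic lining of the follicle around the oocyte) of Kunming mice (an outbred stock) at postnatal day 21. All mice had received 5 IU of PMSG, a gonadotropin that drives follicle growth, for 48 h. The 0 h group had no further treatment, and the 1 h and 6 h groups were taken 1 h and 6 h after 5 IU of hCG, which starts ovulation through the LH receptor. Each time had 3 libraries, 9 in all, and the series describes the course of gonadotropin-induced ovulation. The labels do not state whether libraries of 1 time are separate animals or pools. The p-values therefore weigh differences between times against the spread of these libraries, and that spread may be technical. Mice left without hCG for the matching hours were not analysed here, so hours since hCG and the time of day cannot be told apart.

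The files hold FPKM (fragments per kilobase, relative to all mapped fragments), from which depth in reads is unknown. Summed over all genes, libraries held 493222 ± 1980 FPKM at 0 h, 551992 ± 22575 FPKM at 1 h and 526831 ± 12949 FPKM at 6 h (mean ± SD of 3). Pearson's r between libraries across genes, which are not independent replicates, was 0.982 to 0.988 within a time and 0.874 to 0.972 between times. All 10 granulosa markers were tested and none was at 0, and their summed level was 12326 to 13057 FPKM at 0 h, 12126 to 17518 at 1 h and 4544 to 4841 at 6 h, with 9 of 10 called lower at 6 h than at 0 h. Oocyte markers summed to 42.5 to 67.4 FPKM at 0 h, 55.7 to 67.0 at 1 h and 76.8 to 115 at 6 h, and 9 of 9 were called higher at 6 h than at 0 h. Leukocyte markers summed to 31.1 to 50.7 FPKM at 0 h, 32.8 to 63.3 at 1 h and 21.6 to 34.5 at 6 h. Theca and stroma markers summed to 187 to 282 FPKM at 0 h, 242 to 381 at 1 h and 99.0 to 119 at 6 h, and 4 of 8 were called lower at 6 h than at 0 h. Erythroid markers summed to 133 to 202 FPKM at 0 h, 89.7 to 204 at 1 h and 69.5 to 133 at 6 h (2 of 4 tested called lower). Endothelial markers summed to 23.8 to 30.5, 24.2 to 33.0 and 25.4 to 38.4 FPKM at 0, 1 and 6 h (2 of 6 called higher), and surface epithelium markers to 23.4 to 27.0, 23.1 to 26.8 and 17.4 to 22.8 FPKM (2 of 5 tested called lower). Over all tested genes, 28.8% were called higher and 27.9% lower at 6 h against 0 h. The part of these marker shifts in the results below was not tested, and in bulk RNA fewer cells of a type and less RNA per cell cannot be told apart.

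Of the 50 proteasome genes, 48 reached 1 FPKM in at least 3 libraries and were tested with limma on log2(FPKM + 1), where a call means a p below 0.05 after Benjamini-Hochberg adjustment over 14535 genes. The genes under that filter were Psmb11, the thymus-specific beta subunit, and Psme2b. Psmb11 had 0.0149, 0.0141 and 0 FPKM at 0 h, 0, 0.0165 and 0.0195 FPKM at 1 h and 0, 0 and 0.0176 FPKM at 6 h. Psme2b, a copy of the activator gene Psme2 with which it may share reads, had 0.191 FPKM at 0 h, 0.226 at 1 h and 0.241 at 6 h in replicate 2 and was listed at 0 in the other libraries. The median level of the tested members was 57.5 FPKM over the 9 libraries, against 10.1 FPKM for all tested genes, and 42 of 48 members lay above the median of all genes.

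At 6 h against 0 h after hCG, 25 of the 48 tested members were called higher, 6 were called lower and 17 were not called. Over all genes, 28.8% were called higher and 27.9% lower, 56.6% in either direction. The median log2 change of the members was 0.22, and that of all tested genes was -0.00. The calls differed in number between the parts of the particle. In the 19S particle 15 of 17 subunits were called higher and none lower (median 0.37), and 13 and 12 were called higher after scaling to the mean sum and after quantile normalization. In the standard 20S core 8 of 14 were called higher and 1 lower (median 0.23), against 5 higher and 1 lower after scaling to the mean sum and 2 higher and 3 lower after quantile normalization. Over all genes, 3503 were called higher and 4714 lower of 14553 after scaling to the mean sum. After quantile normalization 3880 were called higher and 4423 lower of 14535. On the values as deposited, the assembly factors and immunosubunits had 0 called higher, with 2 of 7 and 1 of 3 called lower.

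**Figure D1:**
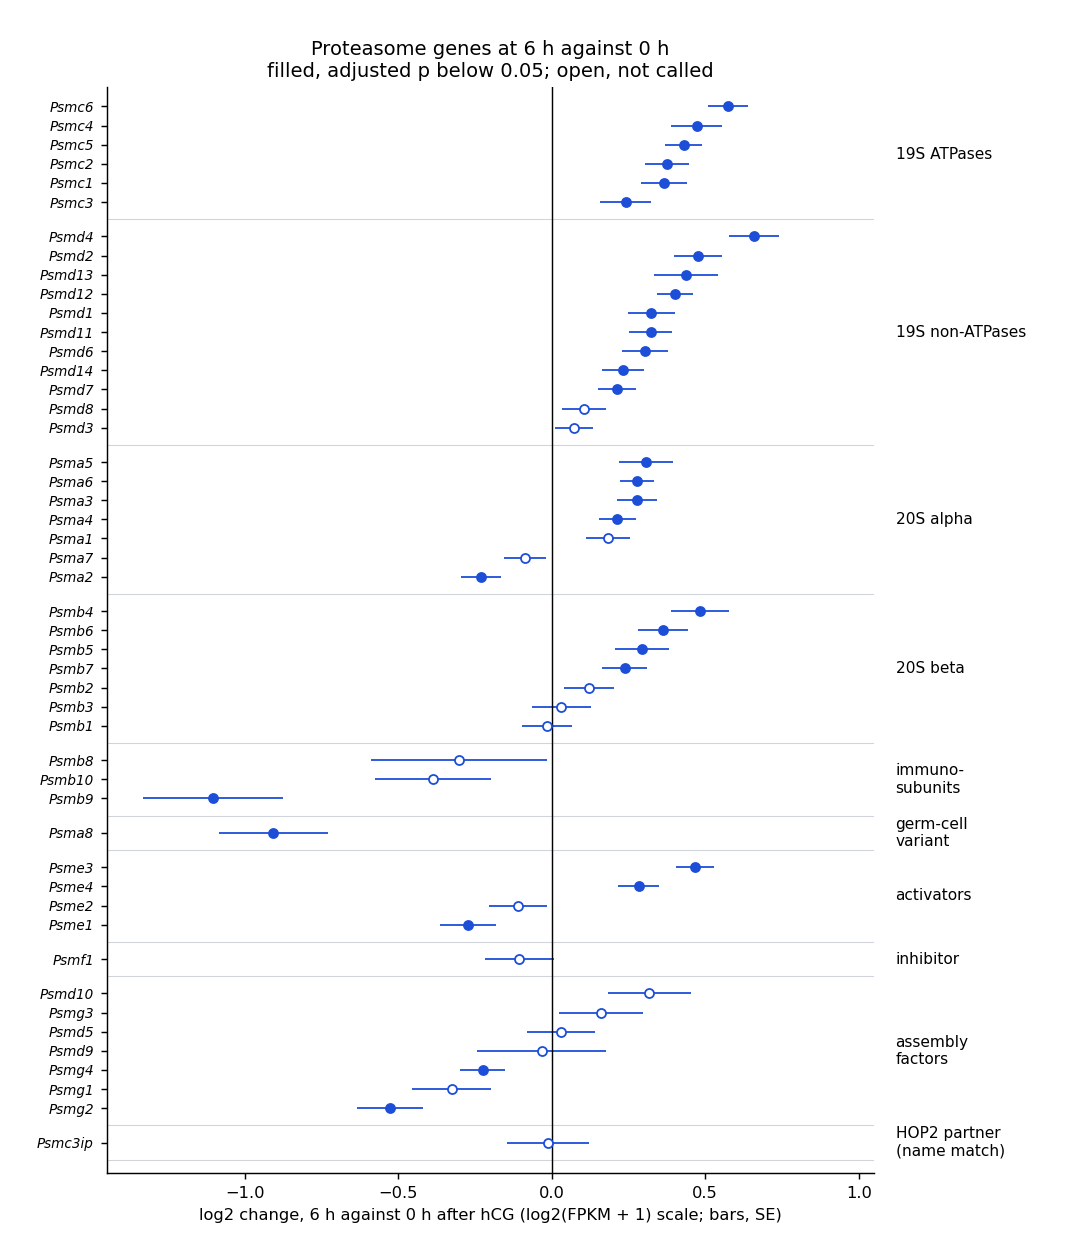
Log2 change of the 48 tested members at 6 h against 0 h on the log2(FPKM + 1) scale (horizontal axis), grouped by their part of the proteasome, with points for the estimate and bars for the SE. Filled points were called at an adjusted p below 0.05. The 17 subunits of the 19S particle all lie right of 0, from 0.07 for Psmd3 to 0.66 for Psmd4, while Psmb9 (-1.10) and Psma8 (-0.91) lie farthest left.

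The promoters of 4 genes of the 19S particle with the largest increases and of Psmb9, the member with the largest decrease, are shown for their differing motif content, described after the expression values. Each window runs from 250 bases before to 50 bases after the start of the RefSeq gene (build GRCm38.p6, that of mm10) and is written 5′ to 3′ on the gene's strand. Capitals mark matches, on either strand, to CCAAT (the NF-Y box), GGGCGG (the Sp1 box), TGACG (the core of a cyclic AMP response element), TGACNNNGC (the core of the antioxidant response element) or the interferon-stimulated response element, written here as GAAA, 2 bases of any kind and GAAA.
Psmd4 promoter, chr3:95042565-95042864, minus strand: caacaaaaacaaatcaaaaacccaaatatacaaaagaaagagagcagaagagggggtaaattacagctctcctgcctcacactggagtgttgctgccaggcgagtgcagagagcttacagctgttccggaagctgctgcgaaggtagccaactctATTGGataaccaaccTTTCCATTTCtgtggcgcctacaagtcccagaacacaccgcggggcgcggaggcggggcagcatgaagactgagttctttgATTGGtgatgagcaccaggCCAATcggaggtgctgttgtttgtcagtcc
Psmc6 promoter, chr14:45329574-45329873, plus strand: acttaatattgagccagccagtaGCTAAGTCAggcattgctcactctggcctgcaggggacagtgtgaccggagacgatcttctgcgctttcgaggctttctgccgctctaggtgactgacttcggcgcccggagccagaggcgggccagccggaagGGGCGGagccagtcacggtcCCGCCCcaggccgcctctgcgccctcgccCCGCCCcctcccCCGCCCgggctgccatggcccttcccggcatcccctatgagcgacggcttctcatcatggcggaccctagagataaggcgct
Psmd2 promoter, chr16:20651402-20651701, plus strand: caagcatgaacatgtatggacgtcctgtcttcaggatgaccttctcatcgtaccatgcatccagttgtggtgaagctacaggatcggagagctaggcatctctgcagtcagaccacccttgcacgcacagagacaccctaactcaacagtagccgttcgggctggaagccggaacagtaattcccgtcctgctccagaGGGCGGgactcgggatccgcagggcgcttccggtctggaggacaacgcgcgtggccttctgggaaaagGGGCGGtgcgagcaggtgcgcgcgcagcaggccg
Psmc4 promoter, chr7:28050043-28050342, minus strand: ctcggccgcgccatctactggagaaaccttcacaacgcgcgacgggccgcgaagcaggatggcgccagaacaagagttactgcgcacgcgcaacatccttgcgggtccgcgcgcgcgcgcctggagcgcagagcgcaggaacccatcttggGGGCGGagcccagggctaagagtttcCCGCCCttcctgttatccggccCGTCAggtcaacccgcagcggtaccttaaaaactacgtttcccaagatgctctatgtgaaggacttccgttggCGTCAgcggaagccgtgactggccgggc
Psmb9 promoter, chr17:34187281-34187580, minus strand: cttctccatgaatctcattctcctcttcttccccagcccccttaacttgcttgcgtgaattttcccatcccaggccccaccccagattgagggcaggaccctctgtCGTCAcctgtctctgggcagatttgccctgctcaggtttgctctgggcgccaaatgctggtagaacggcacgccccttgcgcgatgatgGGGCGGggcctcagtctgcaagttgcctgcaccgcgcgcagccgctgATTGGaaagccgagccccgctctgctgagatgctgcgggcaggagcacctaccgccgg

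The ATPases of the 19S particle, Psmc1 to Psmc6, form the ring that unfolds substrates, and 6 of 6 were called higher at 6 h against 0 h (median log2 change 0.40, range 0.24 to 0.57). Psmc6 (chr14:45329788-45349705 on the plus strand, mm10, GENCODE M21) had 61.8, 56.5 and 59.0 FPKM at 0 h, 67.0, 64.3 and 73.2 FPKM at 1 h and 86.4, 89.8 and 89.1 FPKM at 6 h. All 6 h libraries lay above all others, and the 1 h libraries lay above those of 0 h without reaching the threshold. The log2 change was 0.57 ± 0.07 (SE) at 6 h against 0 h (limma adjusted p = 5.39e-05) and 0.37 ± 0.07 at 6 h against 1 h (limma adjusted p = 0.000995). Psmc4 (chr7:28041707-28050101, minus strand) had 53.6, 48.6 and 47.2 FPKM at 0 h, 52.8, 55.3 and 63.1 FPKM at 1 h and 65.3, 71.9 and 71.0 FPKM at 6 h. Its 6 h libraries lay above those of both other times, and the log2 change at 6 h against 0 h was 0.47 ± 0.08 (limma adjusted p = 0.000836). Psmc5, Psmc2 and Psmc1 were called higher too, with log2 changes of 0.43, 0.37 and 0.37. The smallest change was that of Psmc3 (0.24 ± 0.08, limma adjusted p = 0.0306), whose call was lost after scaling to the mean sum (log2 0.15) and after quantile normalization (0.08). It was also lost without any 1 of 5 libraries, namely replicates 2 and 3 of 0 h and each replicate of 6 h, with adjusted p of 0.0659 to 0.0977.

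Among the non-ATPase subunits of the 19S particle, which include its scaffold, ubiquitin receptors and deubiquitinase, 9 of 11 were called higher at 6 h against 0 h. Psmd4, a ubiquitin receptor (chr3:95032694-95042614, minus strand), had the largest increase of all members, with 69.5, 67.1 and 63.1 FPKM at 0 h, 76.1, 64.1 and 77.5 FPKM at 1 h and 101, 111 and 104 FPKM at 6 h. The 0 h and 1 h libraries overlapped, and all 6 h libraries were higher than both. The log2 change at 6 h was 0.66 ± 0.08 against 0 h (limma adjusted p = 0.000101), which is 1.58-fold, and 0.54 ± 0.08 against 1 h (limma adjusted p = 0.000427). Psmd2, which forms the base scaffold with Psmd1 (chr16:20651652-20663414, plus strand), had 78.3, 71.6 and 72.6 FPKM at 0 h, 86.1, 76.8 and 93.5 FPKM at 1 h and 99.2, 105 and 106 FPKM at 6 h. Its 6 h libraries lay above those of both other times, and the log2 change at 6 h against 0 h was 0.48 ± 0.08 (limma adjusted p = 0.000573). Psmd13 (0.44), Psmd12 (0.40), Psmd11 (0.32), Psmd1 (0.32) and Psmd6 (0.30) were called higher. Psmd14, the deubiquitinase of the lid (0.23, limma adjusted p = 0.0148), and Psmd7, its partner (0.21, limma adjusted p = 0.0137), were the lowest of the called subunits. Both calls were lost after quantile normalization (0.10 and 0.07), and that of Psmd7 also after scaling to the mean sum (0.12). That of Psmd14 was lost without replicate 3 of 0 h or replicate 2 of 6 h (adjusted p = 0.0531 and 0.0537), and that of Psmd7 without replicate 2 of 0 h or of 6 h (adjusted p = 0.0555 and 0.0516). Psmd8 averaged 57.8 ± 0.859 FPKM at 6 h and 53.8 ± 4.57 FPKM at 0 h, and Psmd3 67.3 ± 3.94 FPKM at 6 h and 63.9 ± 2.79 FPKM at 0 h (SD, n = 3 each), with log2 changes of 0.10 and 0.07 that were not called.

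**Figure D2:**
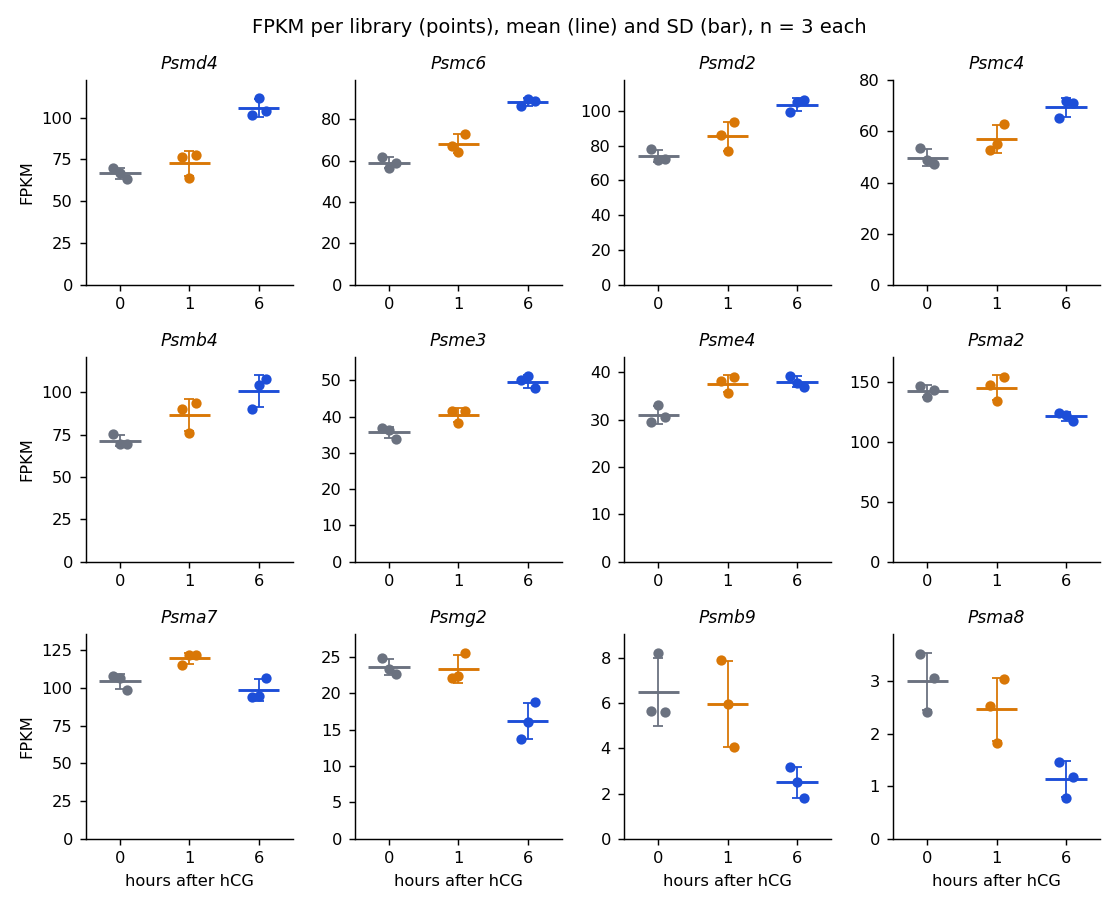
FPKM per library (points) of 12 members at 0, 1 and 6 h after hCG, with the mean (line) and SD (bar) of 3 libraries. The 6 h points of Psmd4, Psmc6, Psmd2, Psmc4 and Psme3 lie above those of both other times, and those of Psma2, Psmg2, Psmb9 and Psma8 lie below them.

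The alpha rings of the 20S core gate the entry to the barrel. Of the 7 standard alpha subunits, Psma5 (log2 change 0.31), Psma6 (0.28), Psma3 (0.28) and Psma4 (0.21) were called higher at 6 h against 0 h and Psma2 was called lower. Psma2, the most abundant member at 0 h, had 147, 138 and 143 FPKM at 0 h, 147, 135 and 155 FPKM at 1 h and 124, 123 and 117 FPKM at 6 h. Its 6 h libraries were below all others, while those of 0 h and 1 h overlapped. The log2 change at 6 h was -0.23 ± 0.07 against 0 h (limma adjusted p = 0.0135) and -0.26 ± 0.07 against 1 h (limma adjusted p = 0.00851), and both calls held under all 17 alternative settings. Psma7 had 108, 107 and 99.0 FPKM at 0 h, 116, 122 and 122 FPKM at 1 h and 94.3, 94.7 and 107 FPKM at 6 h. It was called lower at 6 h against 1 h (-0.28 ± 0.07, limma adjusted p = 0.00656) and was not called at 6 h against 0 h (-0.09), though it was after quantile normalization (-0.25). Psma1 was not called at 6 h against 0 h (0.18, limma adjusted p = 0.0509), although its 6 h libraries lay above those of 0 h, and it was called without replicate 1 of 0 h or replicate 2 or 3 of 1 h. The increases of Psma3, Psma4, Psma5 and Psma6 were lost after quantile normalization, where their log2 changes were 0.12, 0.05, 0.17 and 0.12, and that of Psma4 also after scaling to the mean sum (0.12). Without replicate 2 of 6 h, the calls of Psma4 (adjusted p = 0.0543) and Psma5 (adjusted p = 0.0529) were lost too.

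The beta rings carry the proteolytic sites on Psmb5, Psmb6 and Psmb7, and all 3 of these genes were called higher at 6 h against 0 h, as was the structural subunit gene Psmb4. Psmb4 had 75.1, 69.6 and 69.5 FPKM at 0 h, 90.1, 76.0 and 93.6 FPKM at 1 h and 89.9, 104 and 108 FPKM at 6 h. Both later times lay above 0 h and overlapped with each other, and the log2 change at 6 h against 0 h was 0.48 ± 0.09 (limma adjusted p = 0.00165). Psmb6 (caspase-like activity) had 131, 121 and 125 FPKM at 0 h, 139, 126 and 152 FPKM at 1 h and 151, 169 and 166 FPKM at 6 h. Its 6 h libraries lay above those of 0 h (log2 0.36 ± 0.08, limma adjusted p = 0.00355), and at 6 h it was the most abundant member. Psmb5 (chymotrypsin-like activity) had 50.2, 42.7 and 41.5 FPKM at 0 h, 47.7, 42.3 and 44.7 FPKM at 1 h and 50.6, 56.3 and 58.2 FPKM at 6 h, with a log2 change of 0.29 ± 0.09 against 0 h (limma adjusted p = 0.0175). Psmb7 (trypsin-like activity) had 83.4, 79.0 and 76.0 FPKM at 0 h, 90.4, 79.9 and 92.1 FPKM at 1 h and 88.2, 96.96 and 96.4 FPKM at 6 h, with a log2 change of 0.24 ± 0.07 against 0 h (limma adjusted p = 0.0197). The 6 h libraries of these genes lay above those of 0 h, by a margin of less than 1 FPKM for Psmb5. Unlike the calls of Psmb4 and Psmb6, which held under all 17 alternatives, those of Psmb5 and Psmb7 were lost under both other scalings, where their log2 changes were 0.20 and 0.14 after scaling to the mean sum. They were also lost without any 1 of replicates 2 and 3 of 0 h or 2 and 3 of 6 h, with adjusted p of 0.0546 to 0.0707. Psmb1 (-0.02), Psmb2 (0.12) and Psmb3 (0.03) were not called at 6 h against 0 h, but Psmb1 was called lower after quantile normalization (-0.19).

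A ratio of sums within a library does not change when all values of the library are multiplied by 1 factor, though quantile normalization, which was not applied here, can change it. The summed FPKM of the 17 subunits of the 19S particle divided by that of the 14 standard core subunits was 0.745, 0.751 and 0.741 at 0 h, 0.720, 0.730 and 0.729 at 1 h and 0.871, 0.853 and 0.861 at 6 h. The 6 h libraries lay above all others and the 1 h libraries below all others, with no overlap between any of the times. The means (± SD of 3 libraries) were 0.746 ± 0.005 at 0 h, 0.726 ± 0.006 at 1 h and 0.862 ± 0.009 at 6 h. The sum for the 19S particle was 1166 ± 30.2 FPKM at 6 h and 904 ± 37.8 at 0 h, and that of the core was 1354 ± 48.0 at 6 h and 1213 ± 50.9 at 0 h. These are sums over chosen genes and were not tested.

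**Figure D3:**
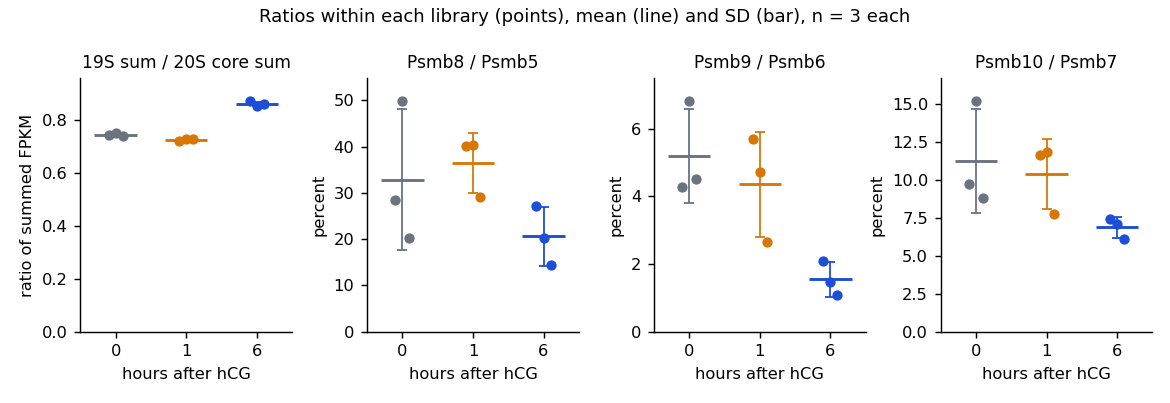
Ratios within each library (points) at 0, 1 and 6 h after hCG, with the mean (line) and SD (bar) of 3 libraries. The left panel gives summed FPKM of the 19S subunits over that of the standard 20S core, 0.862 at 6 h against 0.746 at 0 h, and the other panels give each immunosubunit as a percent of the standard subunit it replaces.

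The immunosubunits Psmb8, Psmb9 and Psmb10 replace Psmb5, Psmb6 and Psmb7 in the immunoproteasome, which favours peptides for MHC class I and is induced by interferon gamma. Psmb9 (chr17:34181987-34187764, minus strand) had 5.64, 8.23 and 5.61 FPKM at 0 h, 7.88, 5.94 and 4.06 FPKM at 1 h and 3.17, 2.50 and 1.79 FPKM at 6 h. All 6 h values were below those of the other times, and 0 h and 1 h overlapped. Its log2 change at 6 h was -1.10 ± 0.23 against 0 h (limma adjusted p = 0.00227) and -0.98 ± 0.23 against 1 h (limma adjusted p = 0.00503), the largest decreases of any member. Both calls held under all 17 alternatives. Psmb9 stood at 1.55 ± 0.516% of Psmb6 at 6 h, against 5.20 ± 1.39% at 0 h (SD, n = 3 each), on the FPKM scale.

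Psmb8 had 14.3, 21.3 and 8.43 FPKM at 0 h, 19.1, 17.1 and 13.0 FPKM at 1 h and 13.7, 11.5 and 8.35 FPKM at 6 h, so that the times overlapped. The log2 change at 6 h against 0 h was -0.30 ± 0.29 and was not called, but without replicate 3 of 0 h it was -0.63 and was called (limma adjusted p = 0.0493). With the replicate number as a block in the fit, Psmb8 was called lower at 6 h against 1 h (-0.52, limma adjusted p = 0.033), a change not called in the main fit. Psmb10 had 8.14, 12.0 and 6.70 FPKM at 0 h, 10.5, 9.46 and 7.14 FPKM at 1 h and 6.57, 6.85 and 5.87 FPKM at 6 h. Libraries of 6 h overlapped with those of 0 h and lay below those of 1 h, and neither log2 change (-0.39 against 0 h, -0.42 against 1 h) was called. Against 1 h it was called without replicate 2 of 0 h (-0.42, limma adjusted p = 0.0335) or replicate 3 of 1 h (-0.56, limma adjusted p = 0.0398). Without replicate 3 of 0 h the change of Psmb10 at 6 h against 0 h was -0.55 and was called (limma adjusted p = 0.0318). With the replicate block, Psmb10 was called lower at 6 h against 0 h and against 1 h (limma adjusted p = 0.0431 and 0.0334). Replicate 2 of 0 h was the highest of the 9 libraries for all 3 immunosubunits and for Nlrc5 and Tap1. Summed over the whole MHC class I antigen processing list below, it held 2344 FPKM, and the highest sum was 2779 in replicate 3 of 1 h. For the interferon response list it held 170 FPKM, and the highest sum was 182 in replicate 1 of 0 h. The leukocyte marker sum of replicate 2 of 0 h, 50.7 FPKM, was the highest at 0 h. Over the 9 libraries replicate 2 of 1 h had the highest leukocyte marker sum, 63.3 FPKM. That 1 h library had 17.1 FPKM of Psmb8, 5.94 of Psmb9 and 9.46 of Psmb10. Of 9 leukocyte markers tested, 1 (Lyz2, lost without replicate 2 of 0 h or 1 of 6 h) was called lower at 6 h against 0 h and 0 higher, and none of the 11 listed was at 0 in every library. Their part in the immunosubunit values was not tested.

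The list of MHC class I antigen processing held 13 tested genes, of which 1 was called higher and 5 lower at 6 h against 0 h (median log2 change -0.39). Over all genes 28.8% were called higher and 27.9% lower. The lower genes were Erap1 (-0.94), a peptide-trimming aminopeptidase, Tapbp (-0.52), which loads peptides, and Calr (-0.68), Pdia3 (-0.54) and Canx (-0.40), which fold glycoproteins of many kinds in the endoplasmic reticulum. The higher gene was Tap2 (0.56 ± 0.14, limma adjusted p = 0.0064), a chain of the peptide transporter. Tap1, its partner chain, has a promoter shared head to head with Psmb9, and their RefSeq windows overlap by 275 bases (Tap1 chr17:34187306-34187605, plus strand). Tap1 had 12.9, 16.3 and 7.90 FPKM at 0 h, 12.1, 11.1 and 7.48 FPKM at 1 h and 10.7, 8.97 and 7.24 FPKM at 6 h, with a log2 change of -0.39 at 6 h against 0 h that was not called, though without replicate 3 of 0 h it was -0.65 and was called (limma adjusted p = 0.0282). With the replicate block it was called too (limma adjusted p = 0.0363). The 6 h libraries of Tap1 overlapped with those of the other times, while those of Psmb9 did not. The difference between these genes was not tested. Of 12 tested interferon response genes, 0 were called higher and 1 lower at 6 h against 0 h (median log2 change -0.22), and the lower call did not hold in every omission of a library.

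Psma8 replaces Psma7 in the proteasome of male germ cells. It had 3.51, 2.42 and 3.05 FPKM at 0 h, 2.52, 1.83 and 3.03 FPKM at 1 h and 1.46, 0.781 and 1.17 FPKM at 6 h. Its lowest values were those of 6 h, and the other times overlapped. Its log2 change at 6 h was -0.91 ± 0.18 against 0 h (limma adjusted p = 0.00166) and -0.69 ± 0.18 against 1 h (limma adjusted p = 0.00819), and both calls held under all 17 alternatives. On the FPKM scale it stood at 1.15 ± 0.363% of Psma7 at 6 h, against 2.87 ± 0.525% at 0 h (SD, n = 3). The summed oocyte markers were 76.8 to 115 FPKM at 6 h and 42.5 to 67.4 FPKM at 0 h. Which cells gave the Psma8 values was not tested.

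The activators open the core without the 19S particle. Psme3, the nuclear PA28 gamma, had 36.8, 36.3 and 33.9 FPKM at 0 h, 41.5, 38.3 and 41.5 FPKM at 1 h and 50.1, 51.1 and 47.8 FPKM at 6 h, with no overlap between any of the times. Its log2 change at 6 h was 0.47 ± 0.06 against 0 h (limma adjusted p = 0.000163) and 0.29 ± 0.06 against 1 h (limma adjusted p = 0.00342). Psme4, the large nuclear activator PA200, had 29.5, 33.2 and 30.6 FPKM at 0 h, 38.2, 35.6 and 39.0 FPKM at 1 h and 39.2, 37.8 and 36.9 FPKM at 6 h. Both later times lay above 0 h and overlapped with each other. Psme4 was called higher at 6 h (0.28 ± 0.07, limma adjusted p = 0.0049) and at 1 h (0.27 ± 0.07, limma adjusted p = 0.0248) against 0 h.

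Psme1 and Psme2 encode PA28 alpha and beta, which form the activator ring induced by interferon gamma. Psme1 had 71.3, 71.7 and 63.8 FPKM at 0 h, 76.9, 64.1 and 62.4 FPKM at 1 h and 61.4, 53.6 and 55.7 FPKM at 6 h. All 6 h values were below the rest, and the log2 change against 0 h was -0.27 ± 0.09 (limma adjusted p = 0.0289). The call was lost without any 1 of replicates 1 and 2 of 0 h or 2 and 3 of 6 h, with changes of -0.26 to -0.23 and adjusted p of 0.0734 to 0.102. Psme2 had 77.4, 72.8 and 64.2 FPKM at 0 h, 71.0, 63.8 and 69.5 FPKM at 1 h and 71.2, 68.9 and 58.3 FPKM at 6 h. The times overlapped, and the change at 6 h against 0 h was -0.11 and not called (limma adjusted p = 0.344), though after quantile normalization it was -0.25 and was called (limma adjusted p = 0.0344). Psmf1, the proteasome inhibitor PI31, had 11.1, 12.0 and 8.76 FPKM at 0 h, 9.42, 10.6 and 10.2 FPKM at 1 h and 9.07, 10.2 and 9.99 FPKM at 6 h, which overlapped, and it was called in no comparison.

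The assembly factors were among the least abundant members, with means of 9.24 to 21.6 FPKM at 6 h and 9.25 to 25.5 FPKM at 0 h. Psmg1 and Psmg2 form the heterodimer that guides assembly of the alpha ring. Psmg2 had 24.9, 23.3 and 22.6 FPKM at 0 h, 22.1, 22.4 and 25.6 FPKM at 1 h and 13.8, 16.0 and 18.8 FPKM at 6 h. Its 6 h libraries were below all others, with a log2 change of -0.53 ± 0.11 against 0 h (limma adjusted p = 0.0022) and -0.51 ± 0.11 against 1 h (limma adjusted p = 0.00297), and both calls held under all 17 alternatives. Psmg1 averaged 10.3 ± 2.12 FPKM at 6 h and 13.0 ± 0.342 FPKM at 0 h (SD, n = 3 each), a log2 change of -0.33 that was not called (limma adjusted p = 0.0536). It was called after scaling to the mean sum (-0.41, limma adjusted p = 0.0274), after quantile normalization (-0.36, limma adjusted p = 0.0312) and without replicate 3 of 6 h (-0.47, limma adjusted p = 0.0041).

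Psmg3 and Psmg4 form the second heterodimer of alpha ring assembly. Psmg3 had 11.4, 7.79 and 9.86 FPKM at 0 h, 6.62, 8.38 and 6.45 FPKM at 1 h and 10.6, 11.6 and 10.3 FPKM at 6 h. The 6 h libraries lay above those of 1 h (log2 0.55 ± 0.14, limma adjusted p = 0.0076) and overlapped with those of 0 h (0.16, not called). From the most abundant row of the gene alone, the change of Psmg3 at 6 h against 1 h was 0.69 and was not called (limma adjusted p = 0.0826). Psmg4 was called lower at 6 h against 0 h (-0.22 ± 0.07, limma adjusted p = 0.0245), and the call was lost without replicate 1 or 2 of 0 h or replicate 1 of 6 h, with adjusted p of 0.0626 to 0.0931, and from its most abundant row alone (adjusted p = 0.145). The base assembly factors Psmd5 (0.03), Psmd9 (-0.03) and Psmd10 (0.32, limma adjusted p = 0.0686) were not called at 6 h against 0 h, although Psmd10 was called without replicate 1 or 2 of 1 h (limma adjusted p = 0.0375 and 0.0422).

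At 1 h against 0 h, 2 of the 48 tested members were called higher and 0 lower by limma, while 9.68% of all genes were called higher and 5.98% lower, 15.7% in either direction. At an unadjusted p below 0.05, 15 members were higher and 1 (Psmg3) lower, against 16.3% of all genes higher and 14.6% lower. The called members were Psme4 and Psma3, an alpha subunit with 87.8, 84.4 and 87.9 FPKM at 0 h, 99.4, 99.3 and 110.1 FPKM at 1 h and 110.5, 106 and 99.9 FPKM at 6 h (log2 0.24 ± 0.07 at 1 h against 0 h, limma adjusted p = 0.0326). Both were lost after scaling to the mean sum and after quantile normalization. Leaving out replicate 2 of 1 h raised the count called higher to 7, and it was 0 without any 1 of replicates 1 and 3 of 0 h or 1 and 3 of 1 h. The scaled values gave 0 higher and 2 lower, as did quantile normalization. Psmd7 was called lower under both (-0.22 and -0.24), Psmg3 after scaling to the mean sum (-0.53) and Psma2 after quantile normalization (-0.22). Over all genes, 1002 were called higher and 2634 lower of 14553 after scaling to the mean sum. After quantile normalization 1142 were called higher and 1252 lower of 14535. Scaling to the mean sum moved the median gene of the series by -0.14 on the log2 scale at 1 h against 0 h, and the median of the members to -0.05, against 0.11 on the values as deposited. The sign of the members' median at 1 h therefore depended on the scaling.

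At 6 h against 1 h, 16 of the 48 were called higher and 8 lower, and over all genes 26.7% were called higher and 26.9% lower, 53.5% in either direction. After scaling to the mean sum 24 were called higher and 5 lower, against 4420 and 3396 of all 14553 genes. After quantile normalization the members gave 22 and 7, against 3910 and 3868 of all 14535 genes. The subunits of the 19S particle made up 11 of the 16 (15 of 17 were called higher under both other scalings). The standard core had 3 called higher and 2 lower on the values as deposited. Of the core, Psmb4 and Psmb7 were also called higher under both other scalings, and Psma5 after scaling to the mean sum. Without replicate 2 of 6 h, 11 members were called higher and 5 lower. The members called lower were Psma2, Psma7, Psmb9, Psma8, Psme1, Psmg1, Psmg2 and Psmg4. The calls of Psme1, Psmg1 and Psmg4 were lost after scaling to the mean sum and without some single libraries, and that of Psme1 also after quantile normalization. The other 5 lower calls, and 10 of the 16 higher calls, held under all 17 alternatives. The calls at 6 h against 0 h and at 6 h against 1 h share the 6 h libraries and are not independent.

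**Figure D4:**
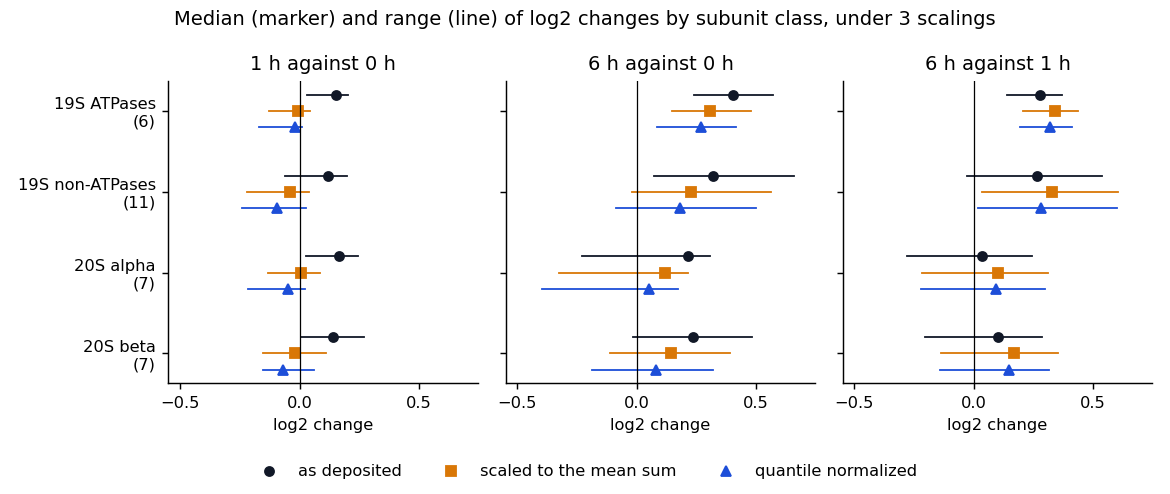
Median (marker) and range (line) of the log2 changes of the 4 main subunit classes in each comparison, for FPKM as deposited, FPKM scaled to the mean sum and quantile-normalized values. At 6 h against 0 h the 19S ATPases stay right of 0 under all 3, with medians of 0.40, 0.31 and 0.27, whereas at 1 h against 0 h the medians move across 0 with the scaling.

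Proteasome-associated genes with other symbols were taken from a list of 17, of which 16 were tested. At 6 h against 0 h, 11 of these were called higher and 1 lower (median log2 change 0.41), against 28.8% and 27.9% of all genes. Zfand5, a zinc-finger protein that stimulates the 26S proteasome, had 42.7, 42.2 and 40.9 FPKM at 0 h, 212, 193 and 257 FPKM at 1 h and 162, 177 and 137 FPKM at 6 h. The times did not overlap, and its log2 change was 2.36 ± 0.12 at 1 h (limma adjusted p = 1.38e-06) and 1.88 ± 0.12 at 6 h (limma adjusted p = 9.41e-07), each against 0 h. Uchl5, a deubiquitinase of the 19S particle, had 9.32, 9.20 and 9.05 FPKM at 0 h, 12.5, 12.0 and 12.7 FPKM at 1 h and 21.6, 21.9 and 20.4 FPKM at 6 h. It was higher at each later time with no overlap, with a log2 change of 1.13 ± 0.07 at 6 h against 0 h (limma adjusted p = 6.86e-07). Adrm1, the 19S ubiquitin receptor that holds Uchl5, was called higher at 6 h against 0 h (0.71), and so was Sem1, a small lid subunit (0.32, limma adjusted p = 0.0115).

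Akirin2, which brings proteasomes into the nucleus, had 23.9, 25.1 and 24.1 FPKM at 0 h, 28.3, 28.3 and 31.7 FPKM at 1 h and 38.2, 41.0 and 45.0 FPKM at 6 h (log2 0.74 ± 0.08 at 6 h against 0 h, limma adjusted p = 2.9e-05). Pomp, the maturation factor of the 20S core, had 60.2, 81.5 and 64.1 FPKM at 0 h, 89.2, 71.5 and 58.9 FPKM at 1 h and 108, 109 and 114 FPKM at 6 h (log2 0.69 ± 0.15, limma adjusted p = 0.00276). For both genes the 6 h libraries lay above all others, whereas 0 h and 1 h overlapped for Pomp. Rad23b, which shuttles ubiquitinated proteins to the proteasome, rose by 0.60, and the related shuttle genes Ubqln1, Ubqln2 and Ubqln4 rose by 0.43, 0.46 and 0.39. Txnl1, a thioredoxin bound to the 19S particle, was the gene called lower (-0.33 ± 0.08, limma adjusted p = 0.00511).

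**Figure D5:**
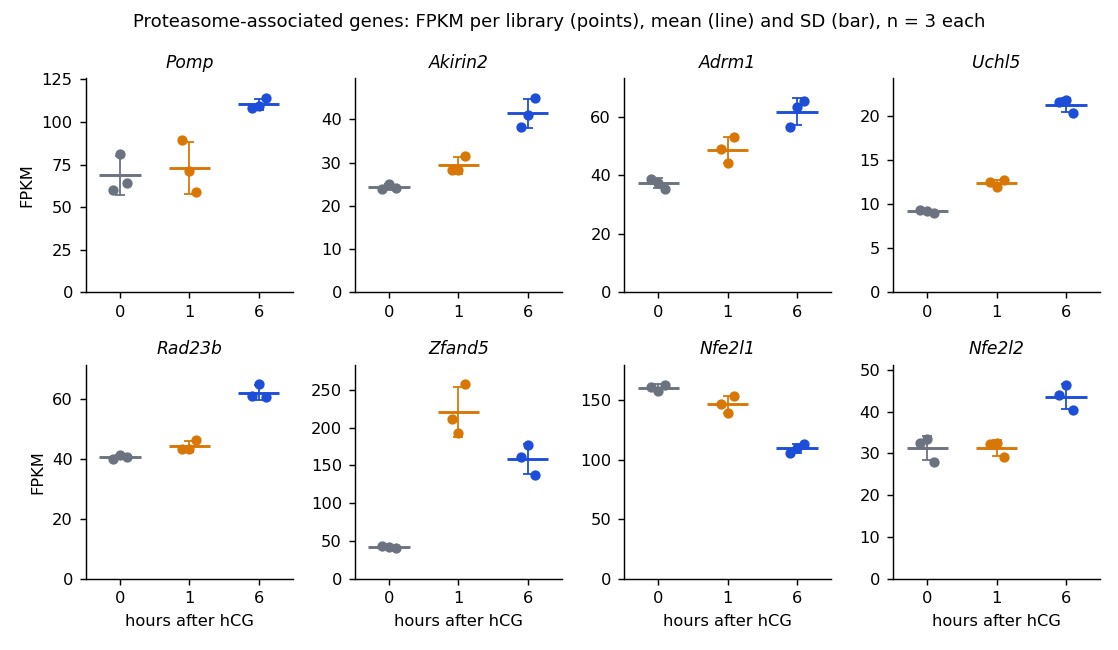
FPKM per library (points) of 8 genes of the proteasome-associated and NRF lists at 0, 1 and 6 h after hCG, with the mean (line) and SD (bar) of 3 libraries. Uchl5, Akirin2 and Rad23b are highest at 6 h, Zfand5 is highest at 1 h, and Nfe2l1 is lowest at 6 h.

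Nfe2l1 encodes NRF1, the transcription factor that raises proteasome genes when proteasome activity falls short. It had 161, 157 and 163 FPKM at 0 h, 147, 139 and 153 FPKM at 1 h and 106, 109 and 113 FPKM at 6 h. Its mRNA was lowest at 6 h, with no overlap between any of the times, and the log2 change at 6 h was -0.55 ± 0.06 against 0 h (limma adjusted p = 3.74e-05). At 1 h the change of -0.13 was not called, but it was called at -0.29 after scaling to the mean sum (limma adjusted p = 0.00336) and -0.38 after quantile normalization (limma adjusted p = 0.000846). Nfe2l2, which encodes the related antioxidant factor NRF2, had 32.4, 33.4 and 28.0 FPKM at 0 h, 32.2, 32.5 and 29.1 FPKM at 1 h and 43.9, 46.3 and 40.3 FPKM at 6 h. Its 6 h libraries were above all others (log2 0.47 ± 0.09 against 0 h, limma adjusted p = 0.0012).

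In the whole list of the NRF1 and NRF2 axis, 9 of 15 genes were called higher and 3 lower at 6 h against 0 h (median 0.40). The shares of all genes were 28.8% and 27.9%. The largest increases were those of Srxn1 (1.88), which repairs oxidized peroxiredoxins, Bach1 (1.31), a repressor that competes with NRF2, Maff (1.26), a small MAF partner, and Hmox1 (0.92), which degrades haem. Along with Nfe2l1, the lower genes were Nqo1 (-0.62), a quinone reductase at about the filter level, and Ngly1 (-0.42), a deglycosylase that activates NRF1. At 1 h against 0 h 6 genes of this list were called higher and 0 lower, and after scaling to the mean sum 6 and 5. Over all genes 9.68% were called higher and 5.98% lower, and after that scaling 1002 and 2634 of 14553 genes. Srxn1 had 3.67, 4.45 and 3.38 FPKM at 0 h, 46.3, 58.1 and 78.3 FPKM at 1 h and 17.5, 18.1 and 14.8 FPKM at 6 h, an increase that was largest at 1 h (log2 3.65).

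Upstream of the proteasome, 2 of 6 ubiquitin and E1 genes were called higher at 6 h against 0 h, a share near the 28.8% of all genes. These were the ubiquitin-activating enzymes Uba1 (0.36) and Uba6 (0.73). For the complex of p97, the ATPase that extracts ubiquitinated proteins, 3 of 9 genes were called higher at 6 h against 0 h, again near the share of all genes, and these were the cofactors Plaa (0.44), Ufd1 (0.41) and Nploc4 (0.40).

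A RefSeq promoter window was found for 42 of the 50 members, with 45 windows in all, and motif shares were set beside those of all 32851 windows of 300 bases. A member gene counted once if any of its windows held a match, whereas the share of all windows counts each window, so the units differ. These matches describe letters, not binding. The Sp1 box was in 10 of 14 genes of the 19S particle and 5 of 11 of the standard core with a window, and in 35.7% of all windows. The cyclic AMP core TGACG was in 6 of 14 and 7 of 11, and in 20.8% of all windows. The NF-Y box was in 4 of 14 and 6 of 11, and in 37.4% of all windows. The antioxidant core TGACNNNGC was in 2 of 14 and 2 of 11, and in 12.4% of all windows, and the interferon-stimulated response element was in 1 of 14 and 1 of 11, and in 3.44% of all windows. A match to TGACG can share its first bases with a match to TGACNNNGC. In the sequences above, Psmc6 held 4 Sp1 boxes and Psmd2 and Psmc4 2 each, while Psmd4, the member with the largest increase, held 0 and carried 3 NF-Y boxes. Psmd4 also held 1 interferon-stimulated response element, Psmc6 1 antioxidant core and Psmc4 2 cyclic AMP cores. Psmb9 held 1 Sp1 box, 1 cyclic AMP core and 1 NF-Y box.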

How the data were processed

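The authors deposited FPKM per library for 54759 rows, and per the submitters' processing notes the reads were aligned with HISAT2 2.0.5 to mm10. The sources used here do not give the program or annotation behind the FPKM values. Per the labels' protocols, libraries were made from total RNA with an Illumina TruSeq kit, whose strand setting is not stated, so overlapping genes and near-identical copies may share reads. Reads could not be recovered from the low values, so depth is unknown and no counting interval is given. Rows were summed per gene identifier, since the files name no transcripts, and 23 members had more than 1 row. Coordinates are from GENCODE M21. Genes that reached 1 FPKM in no fewer than 3 libraries were tested on log2(FPKM + 1), which understates changes of low genes, with limma 3.58.1 in R 4.3.3 (trended prior variance, 3 group means, 6 residual degrees of freedom) and Benjamini-Hochberg adjustment over 14535 genes. Sums, ratios and motif matches were computed in Python 3.11.15. The test was checked on simulated data.

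The members, lists and tests were chosen with earlier results of these data known. Values in every library are given for the members with the 10 largest changes among called members, for Psmb5 to Psmb10, the activators, Psmf1 and members under the filter, and for further members and list genes that were chosen after their values were seen. Of each list, up to 4 called genes with the largest change per comparison are named, together with Nfe2l1, Nfe2l2 and Pomp, and further called genes were named after their values were seen. Alternatives were other pseudocounts, no filter, 2 scalings, the most abundant row of a gene, the replicate number as a block, an untrended variance and the omission of each library. Libraries of different times share replicate numbers, but the labels do not tie a number to an animal or a day. Some genes of the lists are not reported here.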

Additional observations from a re-analysis of the deposited data

How the results depend on the processing

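Of the 57 calls of single members over the 3 comparisons, 57 held with a pseudocount of 0.1 or 5, 55 with no filter, 54 from the most abundant row alone, 52 with an untrended variance, 47 after scaling to the mean sum, 45 after quantile normalization and 40 to 54 with a library left out, the fewest without replicate 2 of 6 h. The cause of these losses was not tested. At 1 h against 0 h the 2 members called higher became 0 after scaling to the mean sum, 0 after quantile normalization and 1 with an untrended variance, and 0 to 7 with a library left out. The 0 called lower became 2 under both scalings and 0 to 1 with a library left out, and the log2 change of Psma2 turned from 0.03 to -0.22 under quantile normalization (limma adjusted p = 0.0133). Under it the change of Cct5 at 1 h against 0 h was -0.0214 (not called), against 0.21 on the values as deposited. At 6 h against 0 h the 25 called higher became 16 and the 6 called lower became 10 under quantile normalization, and 18 to 27 and 4 to 8 with a library left out. At 6 h against 1 h the 8 called lower became 5 after scaling to the mean sum and 5 to 8 with a library left out, and the 16 called higher became 11 to 20.

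The labels do not tie replicate numbers to pairs, and the main test did not pair libraries. Over genes, the deviations of same-numbered libraries from their group means correlated by -0.08 to 0.15, with 8 of 9 pairs positive and 4 above 0.1. For libraries with different numbers the range was -0.15 to 0.09, with 8 of 18 pairs positive and 0 above 0.1. Not every library correlated best with its own number, and whether the numbers mark a shared source was not tested. With a replicate block, 0 members were called higher and 0 lower at 1 h against 0 h, 25 and 7 at 6 h against 0 h, and 15 and 9 at 6 h against 1 h. The block added calls of lower levels for Psmb10 (limma adjusted p = 0.0431 at 6 h against 0 h and 0.0334 at 6 h against 1 h), Psmb8 (0.033 at 6 h against 1 h) and Tap1 (0.0363 at 6 h against 0 h). Depth is unknown, so members near 1 FPKM, such as Psma8, are limited by an uncertainty that cannot be given here.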

Other observations

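Genes of 2 comparison lists of abundant multi-subunit complexes were measured in the same libraries. Of the 8 subunits of the cytosolic chaperonin CCT, which folds actin and tubulin, 4 were called higher and 0 lower at 6 h against 0 h (median log2 change 0.17), with Cct5 (0.47) and Cct4 (0.36) the largest. Over all genes 28.8% were called higher and 27.9% lower. After scaling to the mean sum 2 of the 8 were called higher and 0 lower (median 0.08), against 3503 and 4714 of all 14553 genes. After quantile normalization 2 were called higher and 0 lower (median 0.01), against 3880 and 4423 of all 14535 genes. The COP9 signalosome and the translation factor eIF3 include subunits that share a fold with the lid of the 19S particle. Their list also held eIF3 subunits without that fold. Of its 22 genes 9 were called higher and 1 lower at 6 h against 0 h (median 0.10). Eif3c (0.56), Eif3b (0.48), Eif3g (0.41) and Eif3d (0.40) had the largest increases. The counts were 7 higher and 3 lower after scaling to the mean sum (median 0.01) and 6 higher and 4 lower after quantile normalization (median 0.03). Over all genes they were 3503 and 4714 of 14553 after that scaling, and 3880 and 4423 of 14535 after quantile normalization. On the values as deposited the gene called lower was Cops7a (-0.27), a call lost from its most abundant row alone (-0.06). The list medians of 0.17 and 0.10 as deposited stand beside 0.37 for the 17 subunits of the 19S particle and 0.23 for the standard core, also as deposited. The differences between the lists were not tested.

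From the most abundant row of a gene alone, Psmd5 (log2 change 0.51), Psmd9 (0.61) and Psmc3 (0.44) were called higher at 6 h against 1 h, while their summed values gave 0.07, 0.21 and 0.14 and were not called. The files do not name the transcripts of these rows.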
